A study of Mus musculus with 16 samples.

Results

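Open chromatin was examined in mouse liver at 10 ATP-binding cassette (ABC) transporter genes, Abcb1a, Abcb4, Abcc2, Abcc3, Abcc4, Abcc6, Abcd2, Abcg2, Abcg5 and Abcg8. DNase-seq sequences the short fragments that the nuclease DNase I frees from chromatin. DNase hypersensitive sites (DHS) are places where such fragments pile up. Liver nuclei came from males and females of C57BL/6J (B6), the strain behind the mouse reference genome, and of CAST/EiJ (CAST), an inbred strain of wild origin, all 8 weeks old and without any treatment in the labels, and 32 units of DNase I were used. The 16 libraries formed 4 groups (male B6, female B6, male CAST and female CAST) of 4 libraries, and the libraries of a group were merged by the authors before DHS were called, so that each group is 1 list with no replicate error and none of the differences below has a test. Every peak that overlapped a member gene, from 20 kb upstream of it to 20 kb downstream, was taken, and peaks of the 4 lists sharing 1 bp or more were merged as a region. All 10 genes held DHS. They gave 73 regions, of 51482 in the genome, of which 5 fell in the windows of both Abcg5 and Abcg8, and the genes are 10 of 22380 protein-coding genes in the annotation. The level of a DHS is the deposited fold enrichment (summit pileup over background) of its strongest peak, and its percentile is its rank among the peaks of its own list.

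ABC transporters use ATP to move substrates across membranes, and in the hepatocyte many of them sit in the canalicular membrane, which faces the bile. Abcb1a (a P-glycoprotein) and Abcg2 export drugs and other foreign compounds, Abcc2 exports conjugates such as bilirubin glucuronides, Abcb4 moves phosphatidylcholine into bile, and the Abcg5-Abcg8 heterodimer exports cholesterol and plant sterols. Abcc3 and Abcc4 export conjugates and bile acids across the basolateral membrane into blood, and Abcc6 takes part in ATP release from hepatocytes. Abcd2 is a peroxisomal transporter of very long-chain fatty acids, so the name efflux transporter does not describe it.

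The lists held 38751 DHS in B6 males, 26271 in B6 females, 39562 in CAST males and 24888 in CAST females. Read depth, recovered from the deposited fold enrichments and p-values, differed: the genome-wide background was 15.4, 13.9, 14.3 and 7.94 overlapping fragments, in that order. Between 6 and 7 of 8 hepatocyte markers had a DHS within 1 kb of a start site, with fold enrichments that summed to between 25.0 and 33.0. None of 7 Kupffer cell, 4 lymphocyte and 4 other-tissue markers had one in any list, which leaves those defining markers at 0. Of 6 endothelial markers, 5 had one in B6 males, 2 in B6 females and 0 in both CAST lists, with summed fold enrichments from 0 to 11.9. Of 5 bile duct markers 1 or 2 had one (summed 3.13 to 8.20), and of 4 stellate markers 0 or 1 (summed 0 to 3.05). The part of other cell types in the results below was not tested, and in bulk nuclei a change in the number of cells of a type cannot be told apart from a change in each cell.

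Summit sequences are shown for the strongest DHS of the set and the strongest at Abcc2, for 2 intron DHS in all 4 lists chosen because they hold several of the letters searched, for the shared start of Abcg5 and Abcg8, and for examples of DHS that differed between the lists. They were read from the mm9 reference on the plus strand, which is B6 sequence. Bases that belong to an annotated untranslated region were left out. The letters searched on both strands are in capitals: FOXA TGTTTAC, C/EBP TTGCNNAA, HNF1 TTAATNATT, HNF6/CUX2 TATTGAT, NRF2 TGACNNNGC and the nuclear receptor half-site AGGTCA.
Abcb4, 20.3 kb upstream, strongest of all (chr5:8873326-8873526): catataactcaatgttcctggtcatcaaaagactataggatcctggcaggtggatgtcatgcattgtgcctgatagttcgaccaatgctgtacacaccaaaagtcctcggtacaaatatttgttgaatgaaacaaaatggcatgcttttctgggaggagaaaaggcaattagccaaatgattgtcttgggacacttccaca
Abcc2, 14.3 kb upstream, strongest at this gene (chr19:43842314-43842514): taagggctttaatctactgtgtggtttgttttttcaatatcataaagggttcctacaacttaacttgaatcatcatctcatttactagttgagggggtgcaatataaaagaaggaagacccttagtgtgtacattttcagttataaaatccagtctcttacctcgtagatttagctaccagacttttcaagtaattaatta
Abcb4, intron, 34.9 kb into the gene, open in all 4 lists (chr5:8928553-8928753): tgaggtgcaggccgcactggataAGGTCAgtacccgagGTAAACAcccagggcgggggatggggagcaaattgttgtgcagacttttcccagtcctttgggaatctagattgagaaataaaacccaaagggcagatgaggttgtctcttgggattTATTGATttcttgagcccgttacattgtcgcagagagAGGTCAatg
Abcg8, intron, 6.37 kb into the gene, open in all 4 lists (chr17:85088735-85088935): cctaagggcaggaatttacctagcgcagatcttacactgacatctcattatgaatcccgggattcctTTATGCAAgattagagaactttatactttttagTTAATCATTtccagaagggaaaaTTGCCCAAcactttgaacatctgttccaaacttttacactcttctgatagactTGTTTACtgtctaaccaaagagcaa
Abcg5 and Abcg8, shared start (chr17:85082572-85082755): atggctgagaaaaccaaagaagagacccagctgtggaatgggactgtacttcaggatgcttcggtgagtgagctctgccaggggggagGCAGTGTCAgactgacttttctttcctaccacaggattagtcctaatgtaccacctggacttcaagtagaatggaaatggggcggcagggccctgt
Abcb1a, just upstream of the start, highest in male CAST (chr5:8659978-8660076): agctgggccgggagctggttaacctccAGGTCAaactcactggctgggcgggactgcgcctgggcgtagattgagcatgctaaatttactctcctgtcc
Abcg2, downstream start, highest in male CAST (chr6:58590622-58590792): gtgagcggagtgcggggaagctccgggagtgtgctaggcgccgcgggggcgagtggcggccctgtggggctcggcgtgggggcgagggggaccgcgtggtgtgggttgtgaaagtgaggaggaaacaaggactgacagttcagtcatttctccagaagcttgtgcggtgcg
Abcc3, intron, 45.6 kb into the gene, higher in males (chr11:94208586-94208786): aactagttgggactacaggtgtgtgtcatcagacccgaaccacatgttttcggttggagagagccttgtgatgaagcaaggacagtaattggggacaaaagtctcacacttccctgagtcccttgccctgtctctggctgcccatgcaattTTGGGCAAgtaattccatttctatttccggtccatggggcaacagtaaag
Abcb4, intron, 10.9 kb into the gene, higher in CAST (chr5:8904528-8904728): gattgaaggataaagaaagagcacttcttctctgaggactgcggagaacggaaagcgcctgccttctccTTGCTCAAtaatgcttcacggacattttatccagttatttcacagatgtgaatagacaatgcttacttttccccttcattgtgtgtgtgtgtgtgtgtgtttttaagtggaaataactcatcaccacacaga
Abcc3, intron, 2.18 kb into the gene, in B6 alone (chr11:94252012-94252212): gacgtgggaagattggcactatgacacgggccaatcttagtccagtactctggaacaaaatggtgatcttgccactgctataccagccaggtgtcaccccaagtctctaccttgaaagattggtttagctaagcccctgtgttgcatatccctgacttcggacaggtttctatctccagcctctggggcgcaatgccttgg
Abcc4, start, higher in female CAST (chr14:119105499-119105699): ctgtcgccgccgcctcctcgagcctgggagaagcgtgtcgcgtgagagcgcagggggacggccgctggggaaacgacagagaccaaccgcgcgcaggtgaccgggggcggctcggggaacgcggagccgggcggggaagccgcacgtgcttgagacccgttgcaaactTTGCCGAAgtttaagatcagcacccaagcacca

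In the whole 201 bp around the summit, untranslated bases included, the Abcg2 start held 20 CpG and 68.7% G+C, while the DHS upstream of Abcb4 and the one in the Abcg8 intron held 2 CpG each. The 10 regions at a start site of a member gene had a median G+C of 57.2% (33.8% to 81.1%) in the 201 bp around the summit, the other 63 regions a median of 44.3%, and all 51482 regions 49.3%. The DHS in the Abcg8 intron held C/EBP letters at 2 places and HNF1 and FOXA letters at 1 place each, all in 201 bp. The Abcb4 intron DHS held 2 half-sites with FOXA and HNF6/CUX2 letters between them. The strongest DHS of the set, upstream of Abcb4, held none of the letters searched.

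Over the 73 regions, the half-site AGGTCA was found in 21 (28.8%), against 17.4% of all regions. C/EBP letters were in 9 (12.3%, against 11.6%), FOXA letters in 5 (6.85%, against 4.46%), NRF2 letters in 5 (6.85%, against 9.25%) and STAT5 letters TTCNNNGAA in 4 (5.48%, against 6.97%). HNF1 and HNF6/CUX2 letters were in 3 regions each (4.11%, against 2.01% and 3.32%), CTCF core letters AGGGGGC in 2 (2.74%, against 4.35%), and HNF4A letters CAAAGTCCA in 1 (1.37%, against 1.06%). Full paired half-sites were in none of them, namely the direct repeats DR1 AGGTCANAGGTCA (0.0816% of all regions) and DR4 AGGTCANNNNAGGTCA (0.00583%) and the inverted repeat IR1 AGGTCANTGACCT (0.0117%), whose core GTCANTGAC was also in none (0.437%). Each half-site of a repeat is also counted as a half-site. A match describes letters in the B6 reference and is not a measured binding site.

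**Figure D1:**
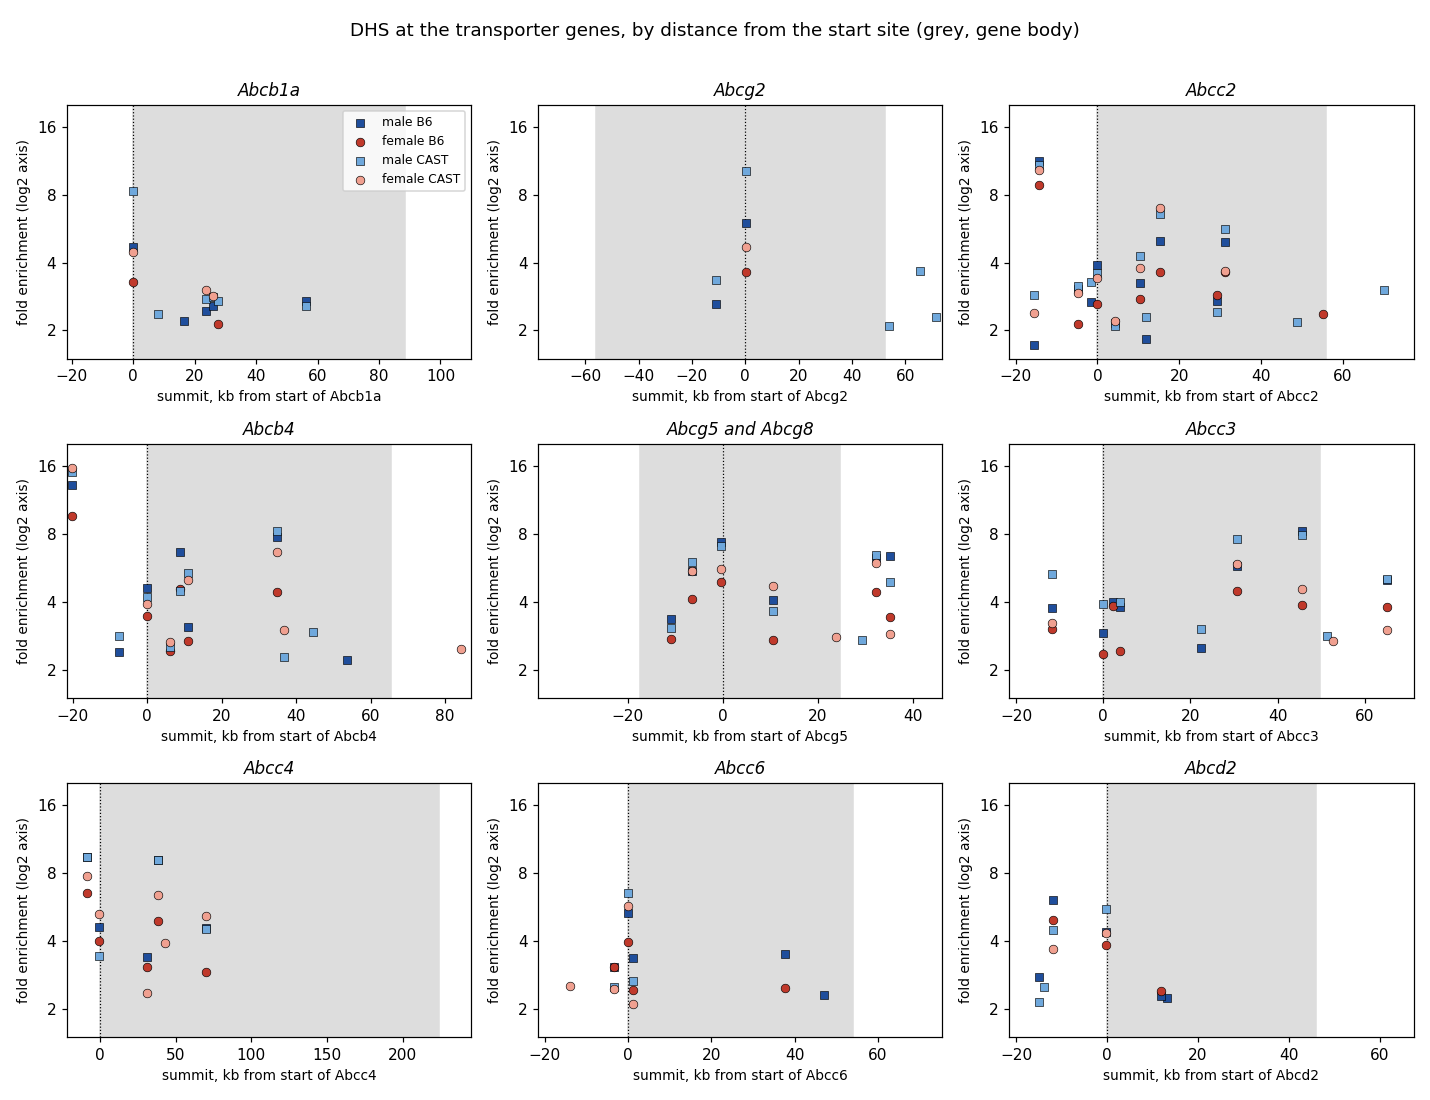
Fold enrichment (log2 axis) of every DHS at the 10 genes against the distance in kb of the strongest summit from the start site of the gene, positive in the direction of transcription, with 1 point per list (squares, males; circles, females; dark, B6; light, CAST) and the gene body in grey. The highest points lie upstream of Abcb4, where all 4 lists were above 9.6, and Abcg2 has a single DHS found in all 4 lists.

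By position, 61 of 73 regions (83.6%) were more than 1 kb from every coding start. A further 10 lay at a start of a member gene, and 2 lay at the starts of the neighbours Ankrd40 and Nomo1. By the strongest summit, 45 regions were intronic, 12 exonic and 16 intergenic. The same shares over all regions were not computed. As the windows take in each gene body and 20 kb to either side, these counts are not shown to be particular to these genes. In all, 30 of the 73 regions (41.1%) were in all 4 lists, where 35.6% of all regions were, and 20 (27.4%) were in a single list, where 35.2% of all regions were. The remaining 23 comprised 11 regions in 3 lists (15.1%, against 12.1% of all regions), 7 in both male lists alone, 3 in both B6 lists alone, 1 in both CAST lists alone and 1 in B6 females and CAST males (1.37%, against 0.814% in 2 lists that differ in sex and strain). The male B6 list held 54 peaks at these genes, the female B6 list 43, the male CAST list 59 and the female CAST list 42, which is between 0.139% and 0.169% of each list. The strength of these DHS was close to the middle of each list, with median percentiles of 55.2 in B6 males, 54.5 in B6 females, 47.9 in CAST males and 45.2 in CAST females. Regions found in all 4 lists had summits that lay a median of 75 bp apart between lists (24 to 385 bp), against 91 bp for all such regions of the genome.

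The number of regions per gene ran from 14 at Abcc2 and 11 at Abcb4 to 5 at Abcg2 and at Abcg8. Abcc3 had 10, Abcg5 8, Abcb1a 7, and Abcc4, Abcc6 and Abcd2 had 6 each. The start site itself was open in all 4 lists at 9 of the 10 genes, Abcc3 being the exception. Among the 40 other ABC genes of the same symbol families, 20 had a DHS within 1 kb of a start in all 4 lists, 7 in 1 to 3 lists and 13 in no list, and the median number of regions was 4 (0 to 23), against 6.5 (5 to 14) at the 10 genes. The windows grow with gene length, which was not matched between these sets. Regions shared by Abcg5 and Abcg8 count for both genes, and some regions lie inside neighbouring genes.

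**Figure D2:**
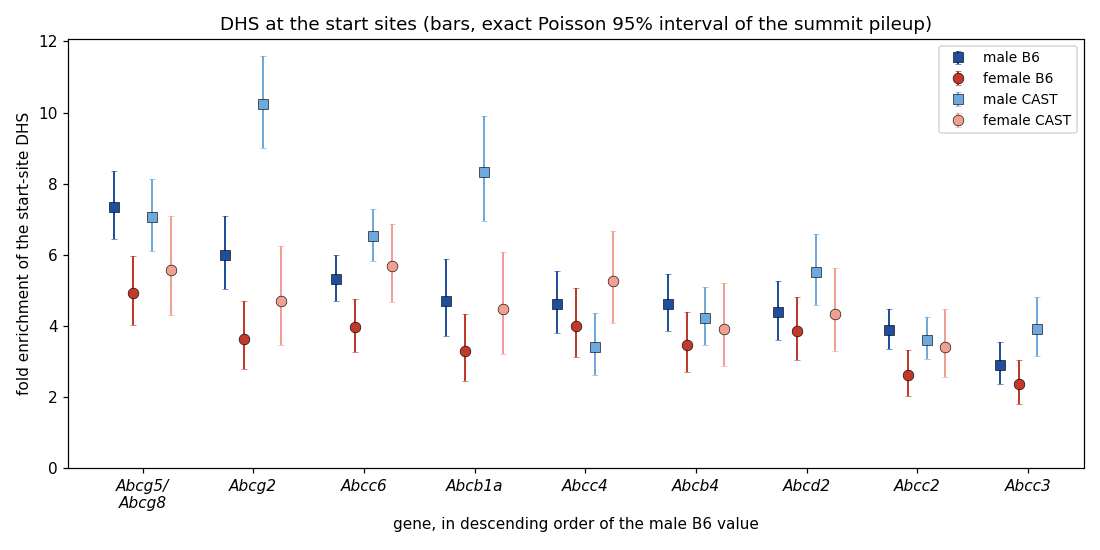
Fold enrichment of the DHS at the start site of each gene in the 4 lists, ordered by the male B6 value, with exact Poisson 95% intervals of the summit pileup on the same scale. In male CAST, Abcg2 (10.2) and Abcb1a (8.33) are the highest, and no female CAST point is drawn for Abcc3, which had no DHS there.

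In male B6 the start-site DHS had their highest fold enrichment at Abcg5 and Abcg8 (7.35), which share 1 DHS, followed by Abcg2 (6.00), Abcc6 (5.32), Abcb1a (4.71), Abcc4 (4.62), Abcb4 (4.60), Abcd2 (4.38), Abcc2 (3.89) and Abcc3 (2.90). Each neighbouring pair in this order had overlapping counting intervals, while the highest (6.44 to 8.36) and the lowest (2.36 to 3.54) did not. In male CAST the order began with Abcg2 (10.2), Abcb1a (8.33), Abcg5 and Abcg8 (7.07) and Abcc6 (6.53), and ended with Abcc2 (3.61) and Abcc4 (3.42). These intervals, and those of ratios below, cover the counting of fragments in the pooled lists alone and not the spread between animals. PCR duplicates also make fragments less independent than the intervals assume. Both orders depend on the local background, which in male B6 ran from 15.4 fragments at Abcb1a to 51.3 at Abcc6. By summit pileup in male B6, Abcc6 (277) was highest, followed by Abcg5 and Abcg8 (232) and Abcc2 (185), and Abcb1a (76) was lowest.

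For each comparison the log2 ratio of fold enrichments was centred on the median of all regions found in both lists, since that median was 0.40 for male over female in B6, 0.25 for male over female in CAST, 0.08 for CAST over B6 in males and 0.25 for CAST over B6 in females, so that uncentred male values lay above female ones across the genome. A ratio is called past 1.5-fold when the centred log2 value is beyond 0.58 in either direction. Of 153 ratios at these genes, 16 passed, at 13 regions. The 95% counting interval excluded 0 for 14 of the 16 and lay wholly past 1.5-fold for 0 of them. As the 16 were picked for these same values, the 14 are no separate support for a difference. Without centring, 6 of the 16 fell short of 1.5-fold, all of them toward females in CAST or toward B6, and by summit pileup over the genome-wide background, centred on its own median, 2 fell short.

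Abcb1a (chr5:8660077-8748575, plus strand), a canalicular drug exporter, had its strongest DHS at the start site (chr5:8659668-8660395), 8.33 in CAST males against 4.71 in B6 males, 4.47 in CAST females and 3.28 in B6 females. Male CAST alone was high, and its counting interval (6.95 to 9.90) overlapped none of the other 3. The centred log2 ratio was 0.74 (0.32 to 1.17) for CAST over B6 in males and 0.64 (0.12 to 1.20) for male over female in CAST. In the matching comparisons it was 0.20 for CAST over B6 in females and 0.12 for male over female in B6, and whether the sexes or strains differ in this ratio was not tested. By summit pileup the male over female ratio in CAST was 0.37, short of 1.5-fold, and the CAST over B6 ratio in males 0.78. The window printed above ends just upstream of the start and holds 1 half-site. The other 6 regions of Abcb1a lay in the gene body, between 2.14 and 3.02 in any list that held them. Of these, 2 (23.7 kb and 26.1 kb into the gene) were missing from female B6 alone, but in lists cut to the size of the smallest, by q-value or by fold enrichment, both were in female CAST alone. Another, 27.7 kb into the gene, was in B6 females (2.14) and male CAST (2.71) alone, and in lists of equal size it was in no list by q-value and in B6 females alone by fold enrichment. An intron DHS 56.3 kb into the gene was in the male lists alone (2.69 in B6 and 2.56 in CAST).

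Abcg2 (chr6:58534517-58642863, plus strand), the other drug exporter, had 1 DHS in all 4 lists (chr6:58590272-58591129). It lay at a downstream start of its coding transcripts, with the strongest summit 0.134 kb into the transcript and inside an intron of the gene, and the annotated upstream starts had no DHS. Its fold enrichment was 10.2 in CAST males, 6.00 in B6 males, 4.69 in CAST females and 3.64 in B6 females. Both males were thus above both females before centring, and male CAST (9.00 to 11.6) did not overlap the counting interval of any other list. The intervals of male B6 (5.04 to 7.08) and female CAST (3.45 to 6.25) overlapped. The centred log2 ratio was 0.87 (0.41 to 1.36) for male over female in CAST and 0.69 (0.39 to 1.0) for CAST over B6 in males. It was 0.32 (-0.13 to 0.79) for male over female in B6 and 0.12 (-0.48 to 0.71) for CAST over B6 in females. Male CAST also held 3 DHS downstream of Abcg2 that no other list held, at 2.09, 3.67 and 2.29. In lists of equal size by q-value or by fold enrichment, 1 of the 3 (3.67) was still in male CAST, and at the median q-value threshold 0 were. The remaining region, 11.2 kb upstream of this start, was in both male lists alone (2.63 in B6 and 3.34 in CAST).

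Abcc2 (chr19:43856682-43912441, plus strand), the canalicular conjugate exporter, had the most regions (14), of which 6 were in all 4 lists. Its strongest DHS (chr19:43841968-43842924) lay 14.3 kb upstream, in an intron of the neighbour Cutc, and reached 11.3 in B6 males, 8.81 in B6 females, 10.8 in CAST males and 10.3 in CAST females. All 4 values were at or above the 95.8th percentile of their lists and the 4 centred ratios were between -0.19 and -0.02, so this was an even DHS. The start-site DHS was weaker, at 3.89, 2.61, 3.61 and 3.42 in the same order. A DHS 15.2 kb into the gene was higher in CAST, at 6.54 in males and 6.96 in females, than in B6, at 4.99 in males and 3.63 in females. Its centred log2 ratio for CAST over B6 passed 1.5-fold in females (0.69, 0.30 to 1.08) and not in males (0.31). A small DHS beside the strongest one, 15.4 kb upstream, was at 1.73 in B6 males and 2.88 in CAST males (0.66, 0.25 to 1.07), with similar local backgrounds of 48.2 and 45.2 fragments, both above the genome-wide values. The 2 DHS in the male lists alone lay 1.65 kb upstream (2.69 in B6 and 3.28 in CAST) and 11.8 kb into the gene (1.83 and 2.29). Between the sexes in B6, the largest centred ratio toward females of the 39 regions was 29.2 kb into Abcc2 (2.71 in males, 2.89 in females, centred -0.49), short of 1.5-fold.

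Abcb4 (chr5:8893717-8959225, plus strand), the phospholipid transporter, carried the strongest DHS of all 10 genes (chr5:8872903-8873971), 20.3 kb upstream of its start. The region lies between Abcb1b and Abcb4 at the edge of the window, so its assignment to Abcb4 is by position alone. Its fold enrichment was 13.2 in B6 males, 9.62 in B6 females, 15.1 in CAST males and 15.7 in CAST females, above the 98th percentile in every list, and its summits lay within 51 bp of each other. Its centred log2 ratio for CAST over B6 in females was 0.46 (0.20 to 0.72), and by summit pileup 0.81, past 1.5-fold. In males the ratio was 0.11, and 0.19 by pileup. The start-site DHS was even, at 4.60, 3.47, 4.21 and 3.91, and a DHS 7.58 kb upstream was in the male lists alone (2.38 in B6 and 2.82 in CAST). A pair of neighbouring intron DHS ran in opposite directions between the strains. The one 8.74 kb into the gene (chr5:8902122-8902745) was at 6.62 in B6 males, 4.56 in B6 females and 4.48 in CAST males and was missing from female CAST. It stood at percentiles 83.9, 74.8 and 60.8 of the lists that held it. Its centred log2 ratio for CAST over B6 was -0.64 (-0.96 to -0.33) in males. The one 10.9 kb into it (chr5:8904220-8904909) was at 3.10 in B6 males, 2.69 in B6 females, 5.36 in CAST males and 4.98 in CAST females. This second DHS was higher in CAST in both sexes, by 0.71 (0.34 to 1.08) in males and 0.64 (0.10 to 1.18) in females. It was the only region of the 73 with a centred fold-enrichment ratio past 1.5-fold between the strains in both sexes, but by summit pileup the ratio in males was 0.45, short of 1.5-fold, and in females 0.64. Its printed window holds C/EBP letters. A strong DHS 34.9 kb into the gene was in all 4 lists (7.72, 4.41, 8.20 and 6.63) with no ratio past 1.5-fold. The next one, 36.7 kb into the gene, was in the CAST lists alone (2.27 in males and 3.01 in females, centred log2 male over female -0.66, -1.36 to 0.06). In lists of equal size by q-value or by fold enrichment it was in female CAST alone, and at the median q-value threshold in no list.

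Abcg5 (chr17:85057574-85082351, minus strand) and Abcg8 (chr17:85075642-85099673, plus strand), the sterol exporters, lie head to head with starts 110 bp apart, and a single DHS (chr17:85081948-85082954) covers both starts. It was at 7.35 in B6 males, 4.91 in B6 females, 7.07 in CAST males and 5.56 in CAST females, and all 4 centred log2 ratios were between -0.13 and 0.18. A broad DHS 6.37 kb into Abcg8 was as even, at 5.46, 4.11, 6.01 and 5.45. The female B6 list split it into 2 peaks. A DHS 10.6 kb into Abcg5 was lower in CAST males (3.65) than in CAST females (4.70), with a centred log2 male over female ratio of -0.61 (-1.21 to -0.0025), while the same ratio in B6 was 0.19. In the window of Abcg5, inside the neighbour Dync2li1, a DHS 35.3 kb from the Abcg5 start was higher in males of both strains (6.39 against 3.42 in B6, 4.87 against 2.86 in CAST), by 0.50 in B6 and 0.52 in CAST after centring, both just short of 1.5-fold. The same DHS was lower in CAST, by -0.47 in males and -0.50 in females. By summit pileup its ratios were 0.78 (B6) and 0.47 (CAST) for male over female, and -0.71 (males) and -0.45 (females) for CAST over B6. Those of 0.78 and -0.71 were past 1.5-fold.

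Abcc3 (chr11:94204612-94254311, minus strand), a basolateral exporter of glucuronides and bile acids, had the region with the largest male-over-female ratio in B6. This DHS (chr11:94208128-94209042), in an intron 45.6 kb into the gene, was at 8.25 in B6 males, 7.88 in CAST males, 4.54 in CAST females and 3.87 in B6 females. Both males were above both females with no overlap of the counting intervals, and the centred log2 ratio was 0.69 (0.29 to 1.11) in B6 and 0.55 (0.06 to 1.05) in CAST, the latter just short of 1.5-fold. Its CAST over B6 ratios were -0.14 in males and -0.02 in females. The DHS with the highest mean percentile at this gene, in an intron 30.6 kb into it, was at 5.75 in B6 males, 4.48 in B6 females, 7.58 in CAST males and 5.91 in CAST females, with no ratio past 1.5-fold. An intron DHS 22.4 kb into the gene was in the male lists alone (2.50 in B6 and 3.02 in CAST). A DHS 2.18 kb into the gene (chr11:94251988-94252695) was in the B6 lists alone, at 3.98 in males and 3.81 in females, above the 58th percentile of both lists. Neither CAST list held it. The CAST level at this site was not measured, and why it was missing there was not tested. The Abcc3 start-site DHS was at 2.90 in B6 males, 2.35 in B6 females and 3.91 in CAST males, and was missing from female CAST. The region at the Ankrd40 start in the same window was at 3.80 in B6 females and 2.99 in CAST females (centred -0.59, -1.22 to -0.00029).

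Abcc4 (chr14:118881914-119105441, minus strand), a basolateral exporter of bile acids and nucleotides, had an even DHS 8.45 kb upstream, at 9.44 in B6 males, 6.52 in B6 females, 9.37 in CAST males and 7.77 in CAST females, with 4 centred ratios between -0.09 and 0.13. An intron DHS 38.5 kb into the gene was at 9.14, 4.92, 9.11 and 6.36, with centred male over female ratios of 0.49 in B6 and 0.27 in CAST. The start-site DHS went the other way in CAST. It was at 5.26 in CAST females and 3.42 in CAST males, a centred log2 male over female ratio of -0.87 (-1.40 to -0.35), and at 4.62 in B6 males and 4.0 in B6 females, a ratio of -0.19 (-0.64 to 0.26). The CAST over B6 ratio in males was -0.51. Female CAST was thus the highest list at this start and male CAST the lowest, which is the reverse of the order at Abcg2 and Abcb1a in CAST. A DHS 70.4 kb into the gene was at 2.90 in B6 females and 5.14 in CAST females (0.58, -0.02 to 1.18), just short of 1.5-fold. Another, 31.3 kb into the gene, was at 3.06 in B6 females and 2.35 in CAST females (-0.63, -1.46 to 0.16), where the female CAST summit held 20 fragments, and was missing from male CAST.

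Abcc6 (chr7:53231750-53285672, minus strand) had a start-site DHS in all 4 lists (5.32, 3.96, 6.53 and 5.69) and no ratio past 1.5-fold in any comparison. A DHS 37.6 kb into the gene was in the B6 lists alone, at 3.49 in males and 2.48 in females. The region at the start of the neighbour Nomo1 was at 3.05, 3.07, 2.49 and 2.46, with centred ratios below 0 in all 4 comparisons and the lowest, -0.57, for CAST over B6 in females.

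Abcd2 (chr15:90976315-91022238, minus strand), the peroxisomal transporter, had an even start-site DHS (4.38, 3.85, 5.53 and 4.34). The DHS 11.8 kb upstream (chr15:91033789-91034384) was lower in CAST, at 4.46 in males and 3.67 in females, than in B6, at 6.10 in males and 4.97 in females. The centred log2 ratio for CAST over B6 was -0.69 (-1.24 to -0.15) in females and -0.53 (-0.91 to -0.16) in males, the latter just short of 1.5-fold. An intron DHS 11.8 kb into the gene was in the B6 lists alone (2.27 in males and 2.40 in females, centred log2 male over female -0.48), and the DHS within 1 kb of another coding start of Abcd2, 13.1 kb into the gene, was in B6 males alone (2.24). In lists of equal size by either ranking, the DHS 11.8 kb into the gene was in female B6 alone. At the median q-value threshold it was in no list. A DHS 15.02 kb upstream was in the male lists alone (2.78 in B6 and 2.15 in CAST).

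**Figure D3:**
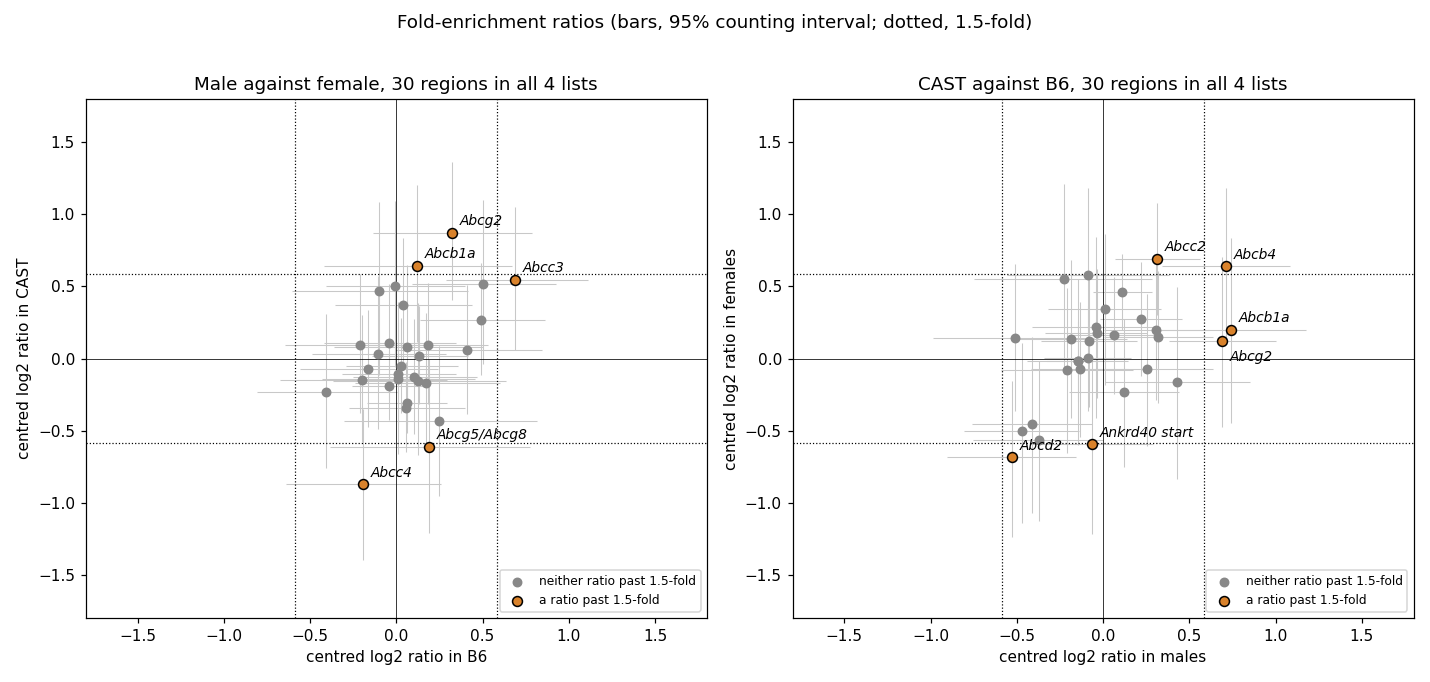
Centred log2 ratios of fold enrichment for the 30 regions in all 4 lists, male over female in B6 against CAST (left) and CAST over B6 in males against females (right), with 95% counting intervals and dotted lines at 1.5-fold. The Abcc3 intron DHS (0.69 and 0.55) lies toward the upper right of the left panel, the Abcc4 start DHS (-0.19 and -0.87) at its lower edge, and the Abcb4 intron DHS (0.71 and 0.64) is past both lines in the right panel.

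By sex, 7 of 73 regions (9.59%) were in the 2 male lists but in neither female list, against 9.38% of all regions, and 0 were in the 2 female lists but in neither male list, against 0.0622%. The 7 belonged to Abcc2 (2), Abcb1a, Abcb4, Abcc3, Abcd2 and Abcg2, with fold enrichments from 1.83 to 3.34. In lists cut to the size of the smallest the count was 1 by q-value and 0 by fold enrichment, while at the median q-value threshold it was 12. Of the 7, only the DHS 1.65 kb upstream of Abcc2 was among those 12, which include regions with a peak in every full list, such as the Abcb1a and Abcg2 starts. Shares over all regions were not computed at these settings. Among regions in both B6 lists, 1 of 39 (2.56%) was past 1.5-fold toward males, against 2.62% of the 23644 regions of the genome in both lists, and 0 toward females, against 2.6%. In CAST, 2 of 36 (5.56%) were past 1.5-fold toward males, against 3.31% of the 22764 regions in both lists, and 3 (8.33%) toward females, against 2.56%. These directions depend on the scaling. Without centring, 8 ratios were past 1.5-fold toward males (24.3% of regions of the genome) and 0 toward females (0.0423%) in B6, and 7 (12.5%) and 1 (0.395%) in CAST. By summit pileup they were 3 (3.41%) and 1 (8.29%) in B6, and 1 (4.23%) and 6 (6.99%) in CAST. The median centred male over female ratio was 0.04 in B6 and -0.09 in CAST.

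By strain, 3 of 73 regions (4.11%) were in both B6 lists alone, against 3.32% of all regions, and 1 (1.37%) was in both CAST lists alone, against 3.62%. In males, 4 of 46 regions (8.7%) were past 1.5-fold toward CAST, against 6.68% of the 29099 regions in both male lists, and 1 (2.17%) toward B6, against 4.49%. In females, 2 of 32 (6.25%) were past it toward CAST, against 4.98% of the 18601 regions in both female lists, and 3 (9.38%) toward B6, against 3.42%. Without centring, 4 were past 1.5-fold toward CAST (8.81% of regions of the genome) and 0 toward B6 (3.17%) in males, and 6 (15%) and 0 (0.823%) in females. By summit pileup the male counts were 3 toward CAST (11.6%) and 3 toward B6 (7.92%), and the female counts 4 (8.67%) and 3 (6.63%). Each of the centred fold-enrichment shares rests on 0 to 4 regions, and with 1 list per group no difference from the background was tested. The median centred CAST over B6 ratio was -0.02 in males and 0.12 in females. The male CAST list enters both the sex comparison in CAST and the strain comparison in males, so the 2 ratios past 1.5-fold at Abcb1a, and the 2 at Abcg2, share that list. The endothelial marker DHS that differed between the strains are given above, and CAST reads were aligned to a CAST version of the genome, which cannot be told apart from the strain.

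**Figure D4:**
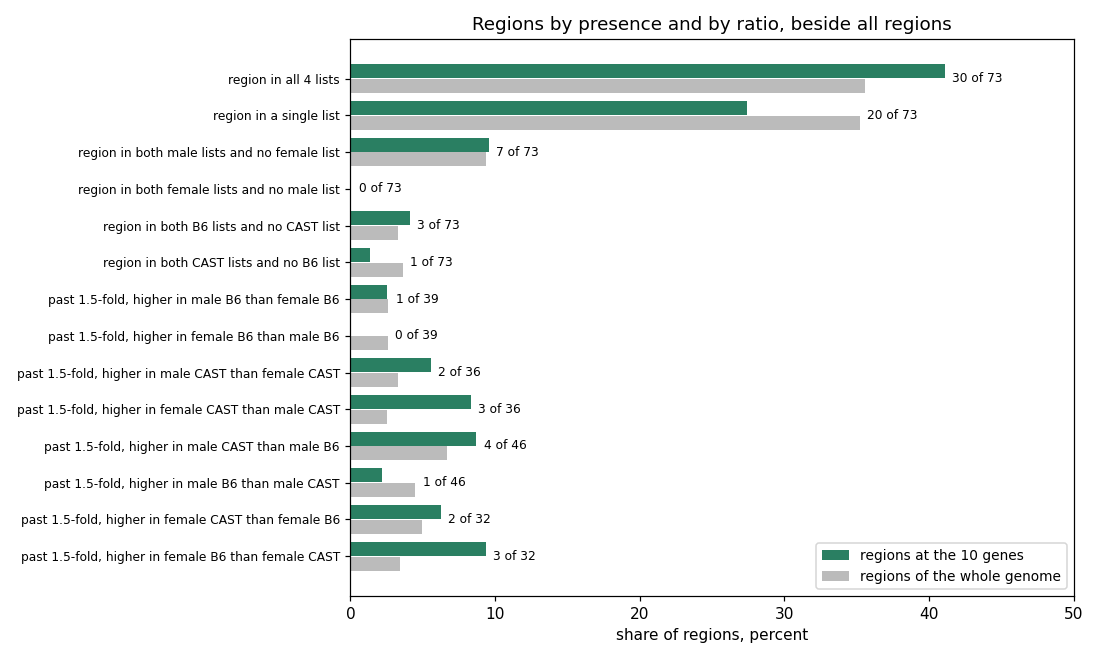
Share of regions in percent by presence in the 4 lists and by ratio past 1.5-fold, for the regions at the 10 genes (green) and for the whole genome (grey; for ratios, the regions in both lists compared), with the number of member regions beside each bar. The largest member counts are 30 of 73 regions in all 4 lists and 20 of 73 in a single list.

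No region in a single list was above the 50th percentile of that list. The nearest were a DHS 65.6 kb downstream of the Abcg2 start in CAST males (3.67, percentile 48.9) and one 43.3 kb into Abcc4 in CAST females (3.92, percentile 47.4). By list, 10 of the 73 regions (13.7%) were in CAST males alone, where 15.2% of all regions were, and 5 (6.85%) in CAST females alone, where 2.54% were. A further 4 (5.48%) were in B6 males alone, against 14.2%, and 1 (1.37%) in B6 females alone, against 3.13%. This tally depends on list size. In lists of equal size by either ranking, those in CAST females alone and B6 females alone stayed so, and further regions came to be in CAST females alone. Those in B6 males alone were then in no list. Of those in CAST males alone, only the DHS 65.6 kb downstream of the Abcg2 start stayed. Among the regions in 3 lists, 5 (6.85%) were missing from female CAST, as were 6.85% of all regions, and 4 (5.48%) from female B6, as were 4.73%. None of these differences was tested.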

How the data were processed

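DNase-seq libraries were grouped by sex and strain from their titles. The authors aligned reads with Bowtie 2 to mm9, or for CAST to mm9 carrying CAST variants with coordinates converted back, merged the 4 libraries of a group, and called DHS with MACS2. The deposited values per peak are a fold-enrichment ratio of summit pileup over background, −log10 p-value and −log10 q-value, a score, and the summit offset in bp. They are single measurements per group. Summit pileups and backgrounds were recovered from the ratio (pseudocount 1) and the p-value, and the pileups were within 0.02 of a whole number for at least 99.8% of peaks in every list. Peaks were joined at 1 bp overlap, in Python (pandas 2.3.3, scipy 1.17.1), with gene models from GENCODE M1 on mm9 and sequence from the same build. Pileup recovery, the joining of peaks, the coverage of ratio intervals and the motif search were tested on simulated data, and the other steps were not. Regions are named at each coding start and strongest DHS, in either list pair of 1 sex or strain, and at the 3 largest ratios per comparison and direction. Regions in a single list are named above the 50th percentile, and as no region passed, the nearest are given, chosen after their values were seen. Intervals are exact (Clopper-Pearson or Poisson) at 95%. The members and gene lists were chosen with earlier results of these data known. Alternatives were 50% overlap, a stricter threshold, equal-size lists, lists scaled to 1 depth, a 5 kb window, no centring, and pileup over background.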

Additional observations from a re-analysis of the deposited data

How the results depend on the processing

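No paired analysis was possible because each group is 1 pooled list, and so leaving out replicates was not possible either. The 73 regions at the 10 genes became 38 at a threshold of the median −log10 q, and the 30 in all 4 lists became 12. Regions of the 2 male lists alone, 7 in the report, numbered 12 at that threshold, 1 in lists of equal size by q-value and 0 by fold enrichment. Most of the 12 had a female peak in the full lists. Regions of the 2 female lists alone, 0 in the report, numbered 1 in lists of equal size by either ranking. Regions in both B6 lists alone fell from 3 to 1 at the stricter threshold. In lists of equal size by either ranking the count was still 3, but the Abcd2 region was replaced by another. The single region in both CAST lists alone became 2 at 50% overlap, and 0 at the stricter threshold and in lists of equal size by fold enrichment. In lists of equal size by q-value the count was still 1, but it was a region 15.4 kb upstream of Abcc2 in place of the one at Abcb4. The 16 ratios past 1.5-fold became 26 without centring. With fewer peaks entering the stricter lists, smaller counts follow from their construction. The cause of the other changes was not tested. Lists scaled to 1 depth and a window of 5 kb left each of the 6 region counts within 1.5 times, and by pileup over background 24 ratios passed 1.5-fold. No ratio past 1.5-fold changed sign, 10 of the 16 were still past it without centring (those lost were at Abcb4, Abcg5 and Abcg8, Abcc3, Abcc4 and Abcd2, 2 toward females in CAST and 4 toward B6) and 14 by pileup (those lost were at Abcb1a and Abcb4). Peak counts per gene and list moved by over 1.5 times for 27 of 40 at the stricter threshold, 9 and 10 in lists of equal size by q-value and by fold enrichment, 9 in the 5 kb window and 1 in lists scaled to 1 depth. The female CAST list had the lowest background (7.94 fragments), and scaling the others to it left 7 regions in the 2 male lists alone. A DHS missing from a list is not shown to be closed.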
